A study of Homo sapiens with 3 samples.

Results

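The cells described here are the dividing cells of D14 chambered cardiac organoids (CCOs), taken as the D14 cells in which 6 genes of late cell division made up at least 8 of every 10000 UMIs. A UMI, or unique molecular identifier, marks 1 captured mRNA molecule. The 6 genes were MKI67, TOP2A, CENPF, TPX2, NUSAP1 and UBE2C, and 435 of 3585 D14 cells passed (12.1%, exact binomial 95% interval 11.1% to 13.2%). The other 3150 D14 cells are called non-cycling below, although the rule cannot see cells in the early parts of the cycle. CCOs were made from the human embryonic stem cell line H7 by switching WNT signalling on and then off in a flat culture. After a week these cells were aggregated in Matrigel and kept for another week in cardiosphere growth medium (CGM), which holds WNT3A, EDN1, FGF2, EGF, cardiotrophin-1 and thrombin and was used to expand cardiovascular progenitors (CVPs). D14 is the end of that week, D8 is its start, and the D21 CCOs had spent a further week in a spinner flask without these factors. All groups share 1 unmodified cell line and 1 protocol, each day is 1 droplet library of dissociated CCOs, and how many CCOs went into a library is not given in the sources used here. No test between days or states was therefore possible, and every interval covers counting error only.

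A dividing cell copies its DNA in S phase, with licensing factors, polymerases and enzymes of nucleotide supply, and then in G2 and mitosis makes the kinases, kinetochore, spindle and cytokinesis proteins that separate the copies. The mRNAs of the last group are made late and destroyed after division, so they mark cells close to mitosis. In the embryonic heart progenitors divide readily, while cardiomyocytes (CMs) slow their division as the sarcomere is built.

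The D14 table held 4615 barcodes, and 3585 were kept, with a gene count above 2000 and below 7500 and less than 10% of UMIs from mitochondrial genes. They held 50247286 UMIs, from 4007 to 63320 in a cell. Cycling cells were deeper than non-cycling ones, with a median of 17343 against 11951.5 UMIs and of 4403 against 3494.5 genes. When every cell was thinned to 4000 UMIs, the rule found 406 cells, of which 389 were among the 435. Of the kept barcodes of the series, 33 were present in 2 libraries, and 3 of the cycling cells carried such a barcode.

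The 6 genes chose the cells, so their levels are a description. UBE2C, a ubiquitin-conjugating enzyme of the anaphase-promoting complex, was at 824 counts per 1000000 UMIs (CPM) in the cycling cells and at 12.8 CPM in the non-cycling cells. CENPF, a kinetochore protein, was at 685 against 15.8 CPM, and TOP2A, the topoisomerase that untangles chromosomes, at 622 against 11.4 CPM. TPX2, an activator of Aurora kinase A on the spindle, was at 493 against 14.2 CPM, the proliferation antigen MKI67 at 486 against 7.22 CPM, and the spindle protein NUSAP1 at 316 against 9.09 CPM. At 4000 UMIs a cell, 80.7% of the cycling cells held a TOP2A UMI (97.7% before thinning), against 3.87% of the non-cycling cells (10.4%). In non-cycling CM-like cells, defined below, it was 1.96% at a median depth of 12497 UMIs before thinning. The median cycling cell had 23.7 UMIs of the 6 genes per 10000, with quartiles of 14.1 and 47.8 and a highest value of 137. Of the non-cycling cells, 59.0% had none. The threshold cuts a continuous range: 32 cycling cells lay between 8 and 10 per 10000 and 35 non-cycling cells between 6 and 8, and the values nearest to it were 8.03 inside and 7.98 outside.

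The lineage of each cycling cell was read without division genes. The 3150 non-cycling cells were clustered on variable genes from which the division genes had been removed, and each cycling cell then took the cluster held by most of its 15 nearest non-cycling cells. The vote was clear for most cells, with a median of 93.3% of neighbours in the chosen cluster. Of the non-cycling cells treated in the same way, 95.4% returned to their own cluster. These cells had built the clusters, so that value cannot show whether cycling cells were placed in the right lineage. Of the 13 clusters, 5 could be named from marker lists. Clusters 2 and 3 were CM-like, each with 12 of 12 markers (TNNT2, MYH6, TTN and others). Cluster 4 was stromal-like with 7 of 12 (MGP, LUM and collagens), cluster 8 foregut endoderm-like with 10 of 10 (TTR, APOA2, EPCAM) and cluster 11 endothelial-like with 8 of 8 (PLVAP, ESAM, SOX17). The other clusters reached no name and are called by number and by their leading genes.

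Cycling cells were most frequent in the unnamed clusters 0 and 5, which carried COL3A1, and were sparse in CM-like cells. COL3A1 alone did not name these clusters stromal. Cluster 0 reached 2 of 12 stromal markers, short of the 3 needed, and as many blood markers. The blood marker HBZ, however, had UMIs in only 0.193% of the non-cycling cells of cluster 0, so that marker rests on very few cells. COL3A1 and POSTN, both on the stromal list, were among the leading genes of cluster 0 when genes found in few cells were left out. The best class of cluster 5 was plate-border epithelium, a list with TFAP2A, at 3 of 8 markers. On that list SFRP2 had UMIs in 2.83% of the non-cycling cells of cluster 5. Cluster 0, led by GUCY1A2, COL3A1, RUNX1T1, MFAP4 and GAS1, held 168 of the 435 cycling cells (38.6%, 34.0% to 43.4%), against 16.4% of the non-cycling cells. Cluster 5, led by EBF2, TMEM100 and PRRX1, held 81 (18.6%, 15.1% to 22.6%), against 8.98%. The stromal-like cluster held 46 (10.6%, 7.85% to 13.9%), against 9.52%, and foregut endoderm-like cells 31 (7.13%, 4.89% to 9.96%), against 5.71%. CM-like cells supplied 28 (6.44%, 4.32% to 9.17%), although they were 24.3% of the non-cycling cells. The endothelial-like cluster supplied 2. The placement in cluster 0 depends on the clustering. With 3000 variable genes, 128 cycling cells fell into a cluster of 178 cells led by replication genes such as GINS2, CLSPN and PCNA, and a cluster of that kind held 110 of 363 at a threshold of 12, 331 of 435 with division genes kept and 288 of 435 with all cells clustered together.

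Read the other way, 24.5% of cluster 0 cycled (168 of 686, 21.3% to 27.9%) and 22.3% of cluster 5 (81 of 364, 18.1% to 26.9%). In the stromal-like cluster it was 13.3% (46 of 346, 9.90% to 17.3%) and in the foregut endoderm-like cluster 14.7% (31 of 211, 10.2% to 20.2%), so those intervals overlapped each other. The stromal-like share was 2.17% when division genes were kept in the clustering and 4.19% when all cells were clustered together. Of the CM-like cells 3.52% cycled (28 of 795, 2.35% to 5.05%), against 14.6% of all other D14 cells (407 of 2790, 13.3% to 16%). The CM-like clusters lay close together, 3.44% for cluster 2 (NPPA, CSRP3) and 3.61% for cluster 3 (NGFR, ACTA2, SLN). After thinning, which removes the difference in depth, the CM-like share was 3.02% and that of all other cells 13.7%. Clusters 1 and 6, which stayed unnamed but carried TNNT2 at 464 and 1323 CPM in their non-cycling cells, had a share near that of the CM-like cells, with 34 of 694 cells cycling (4.90%, 3.42% to 6.78%). The best class of each was ISL1 progenitor, at 2 of 10 markers, short of the 3 needed for a name. Cluster 7, which shares CRABP1, MFAP4 and HOXB4 with cluster 0 but is led by NEFM and the hypoxia-responsive genes DDIT4 and NDUFA4L2, had 13 of 208 (6.25%, 3.37% to 10.5%). Small clusters had wide intervals: 16 of 64 cells in cluster 12 (LINC00458, RIPPLY1; 25%, 15% to 37.4%) and 12 of 75 in cluster 10 (TFAP2A, POU5F1, GAL; 16%, 8.55% to 26.3%).

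**Figure D1:**
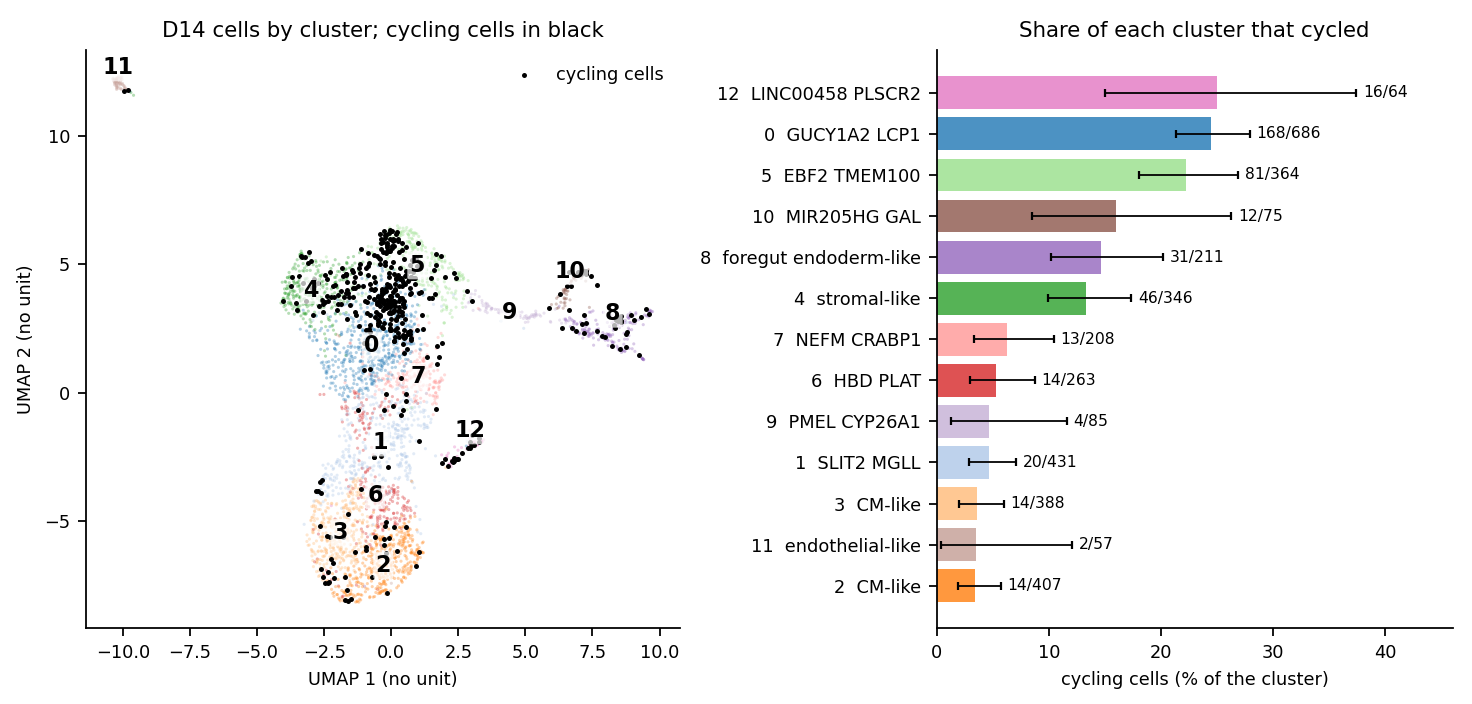
Left, a UMAP of the 3585 D14 cells (axes without unit) made without division genes, with non-cycling cells coloured by cluster, cluster numbers at their centres and the 435 cycling cells in black. Right, the percentage of each cluster that cycled with its exact 95% interval and the cell counts, where clusters 0 and 5 reach 24.5% and 22.3% and the CM-like clusters stay at 3.44% and 3.61%.

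Doublet scores moved with the cycling state in the CM-like clusters and in the unnamed cluster 6. Scrublet, which compares each cell with simulated pairs of cells from the same library, called only 1 D14 cell a doublet. Its scores were therefore used as ranks, and why it called so few was not tested. The top 5% of scores (200 cells, ties included) held 16.8% of the cycling cells and 4.03% of the non-cycling cells. In clusters 0 and 5 they held 7.14% and 6.17% of the cycling cells. In CM-like cells they held 16 of 28 cycling cells (57.1%) and 3.13% of the non-cycling cells, and in cluster 6 they held 13 of 14 cycling cells. COL3A1 is the matrix gene that marks clusters 0, 4 and 5, where it lay between 547 and 1518 CPM. It was at 101 CPM in the cycling CM-like cells and at 76.0 CPM in the non-cycling ones, and after thinning 14.3% and 14.9% of these cells held a COL3A1 UMI. The 16 top-scoring cycling CM-like cells had 128 CPM and the other 12 had 60.6 CPM, and top-scoring non-cycling CM-like cells had 146 CPM. With the top-scoring cells left out and the rest clustered again, 12 of 845 CM-like cells cycled (1.42%, 0.736% to 2.47%). The part of paired cells in the CM-like share was not tested.

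The same contrast was present without any clustering. The D14 cells were ranked by the summed UMIs of 20 sarcomere and calcium-handling genes in 4000 UMIs and divided into deciles. In the lowest decile, with 0 to 4 such UMIs, 24.0% of the cells cycled (86 of 359, 19.6% to 28.7%). The share was 12.8% in the sixth decile, with 15 to 26 UMIs, and 5.87% in the next, with 26 to 59. In the highest decile, from 218 UMIs up, it was 3.06% (11 of 359, 1.54% to 5.42%).

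**Figure D2:**
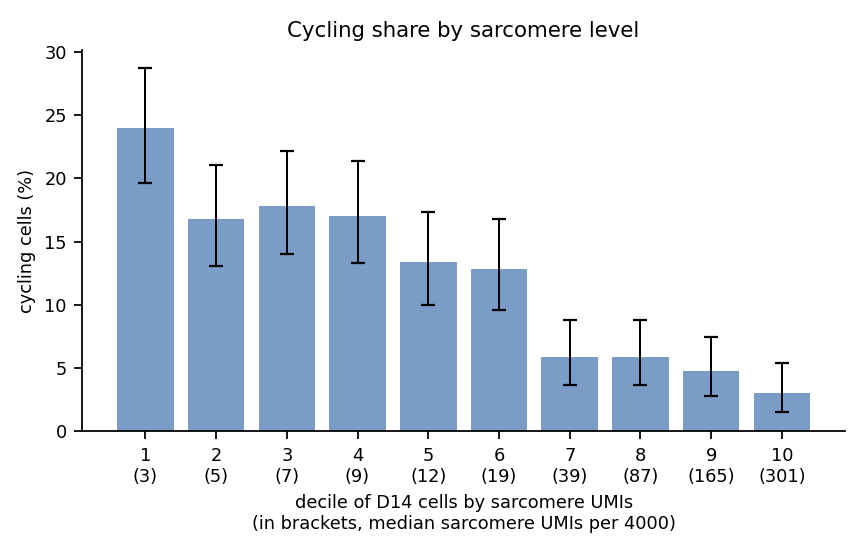
Percentage of D14 cells that cycled (bars, with exact 95% intervals) in deciles of cells ordered by sarcomere UMIs per 4000, whose median is given in brackets under each decile. The share lies at 24.0% in the first decile and at 3.06% in the last, and falls most after the first and after the sixth decile.

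Marker genes of the clusters were read in both states. The clusters were built and named on non-cycling cells alone, which favours lower marker values in cycling cells in advance. TNNT2, cardiac troponin T, was at 2657 CPM in the cycling CM-like cells and at 3536 CPM in the non-cycling ones, while in cycling cells of clusters 0, 4 and 5 it was between 49.0 and 68.8 CPM. The last values are no higher than the 77.7 CPM of non-cycling foregut endoderm-like cells, which should lack it, and are read as background. After thinning, 100% of the cycling CM-like cells and 99.2% of the non-cycling ones held a TNNT2 UMI, against 9.68% and 22.8% of the foregut endoderm-like cells, whose median depths were 28155 and 19368 UMIs. The sarcomere sum per 4000 UMIs in the 28 cycling CM-like cells ran from 45 to 479 with a median of 176.5, against a median of 204 in the non-cycling CM-like cells. The 12 of them outside the top doublet scores had a median of 209 and the other 16 one of 168. Cluster 2 carried this difference, with medians of 141.5 and 218, whereas cluster 3 had 203.5 and 193.5.

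NKX2-5, the early cardiac homeobox factor, was higher in cycling cells of the other clusters named here than in those of the endoderm. It was at 290 CPM in the cycling cells of cluster 0 (410 CPM in the non-cycling cells), 428 CPM in the stromal-like cluster (415), 162 CPM in cluster 5 (259) and 388 CPM in CM-like cells (526), but at 38.4 CPM in the foregut endoderm-like cluster (47.4). ISL1, the factor of second heart field progenitors, was at 131, 149 and 170 CPM in the cycling cells of clusters 0, 4 and 5. It was at 48.5 CPM in the cycling CM-like cells. At 152 CPM in cycling foregut endoderm-like cells it lay within the range of clusters 0, 4 and 5. COL3A1 was at 984, 547 and 1177 CPM in cycling cells of clusters 0, 5 and 4 and at 18.1 CPM in those of the foregut endoderm-like cluster.

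**Figure D3:**
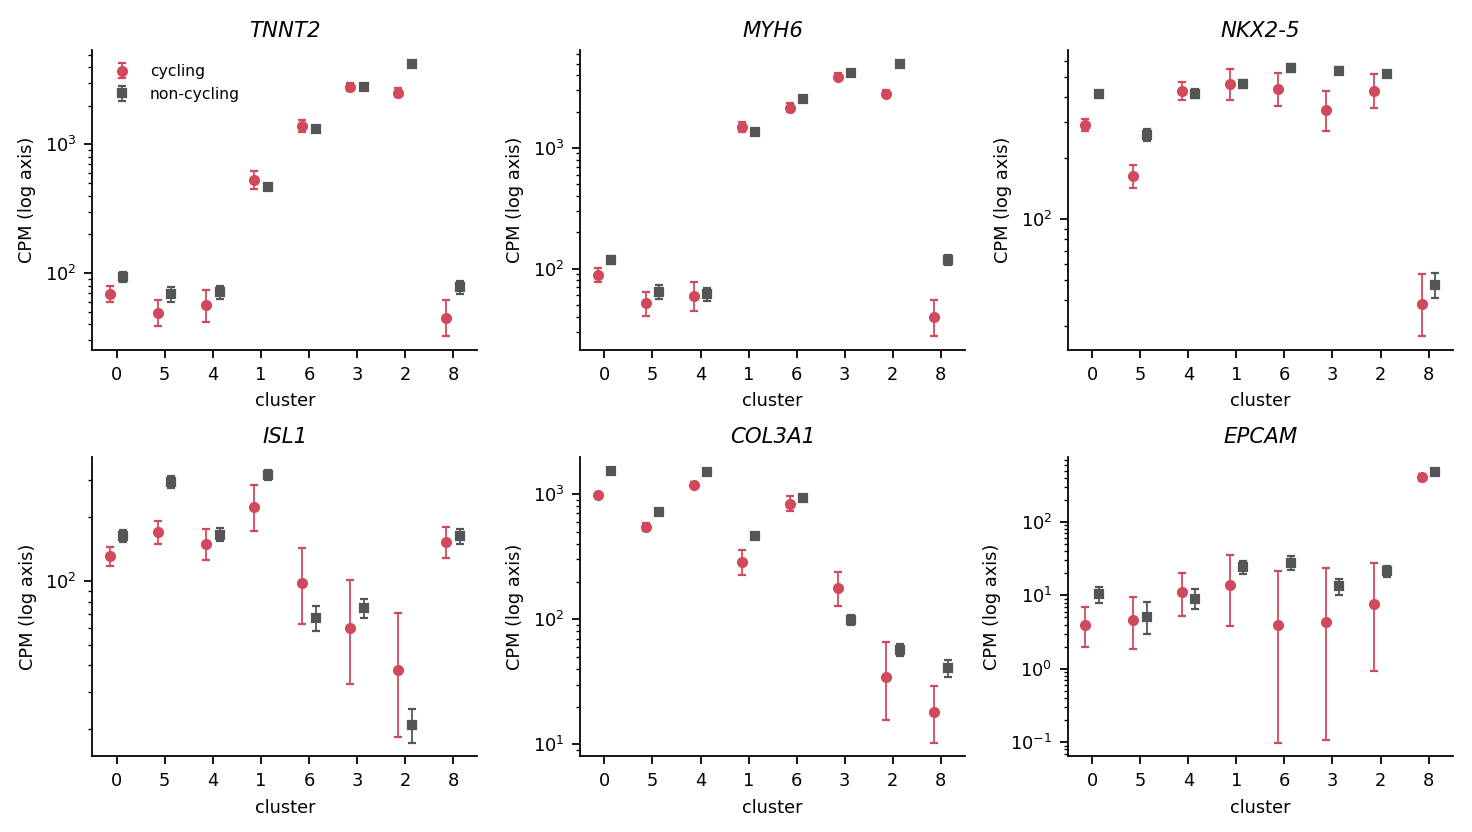
CPM on a log axis of 6 lineage genes in cycling (red circles) and non-cycling (grey squares) cells of the 8 main clusters, with exact Poisson 95% intervals. TNNT2 and MYH6 rise from clusters 0, 5 and 4 through 1 and 6 to the CM-like clusters 3 and 2 in both states and EPCAM is high in cluster 8 alone among these 8.

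The rule selects on late division, so the balance of S phase and G2/M genes in these cells is a description of what it selected. Outside the 6 genes, the 48 other genes of a standard G2/M list gave a median of 75.8 UMIs per 10000 in the cycling cells and of 10.4 in the non-cycling cells. The 40 measured genes of the S phase list gave 18 against 4.69. More S phase than G2/M UMIs were held by 12 of the 435 cycling cells (2.76%, 1.43% to 4.77%), and after thinning by 18 (4.14%). Among the non-cycling cells 259 did (8.22%), and after thinning 14.1%. The lists differ in their number of genes and in their level in non-cycling cells, so the comparison of the sums gives no phase. Cells in the lowest part of the rule, from 8 to 12 UMIs per 10000, had a median of 16.8 S phase and 42.2 G2/M UMIs. The middle range from 12 to 20 had the highest S phase median, 26.5, with 51.8 for G2/M, and cells above 40 had 15.5 and 153. These are ranges of a score and not phases of single cells.

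High S phase sums were also present among the cells that the rule leaves out. Of the 3150 non-cycling cells, 121 (3.84%, 3.20% to 4.57%) reached the S phase median of the cycling cells, and 16 of these had no UMI of the 6 genes. Among the larger clusters they were most frequent where cycling cells were: 44 of 518 in cluster 0 (8.49%), 21 of 283 in cluster 5 (7.42%), 15 of 180 in the foregut endoderm-like cluster (8.33%) and 16 of 300 in the stromal-like cluster (5.33%). Among the 767 non-cycling CM-like cells there were 4 (0.522%, 0.142% to 1.33%), and in cluster 1 there were 0 of 411 cells, which allows a share of up to 0.730% by 3 counts of 411 and of 0.894% by the exact interval. The rule did not use the S phase list, which like the rule was lower in CM-like cells than in clusters 0, 4 and 5.

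The promoters of these genes are shown because the S phase and G2/M lists differed in the elements known from cell cycle control. The CHR element, bound by the DREAM and MuvB complexes, was searched as TTTGAA, the CCAAT box, bound by NF-Y, as CCAAT, and the E2F site as TTTCCCGC, TTTGGCGC or TTTCGCGC, each on both strands. Windows ran from 250 bases before to 50 after each gene's start in RefSeq on GRCh38.p14, which is a different build from the hg19 named in the submitters' processing notes, so they carry no coordinates of the count table. Of the 48 G2/M genes, 41 had a window, and 27 of these (65.9%) held the CHR letters, against 2 of 32 S phase windows (6.25%) and 15.4% of all 27305 windows. The E2F letters had the opposite distribution, in 16 of 32 S phase windows (50%), 2 of 41 G2/M windows (4.88%) and 2.79% of all windows. CCAAT was in 65.9% of G2/M, 71.9% of S phase and 35.7% of all windows, and CHR and CCAAT together in 51.2%, 6.25% and 6.08%. Of the 6 rule genes all but TPX2 and UBE2C had a window, and each of these 4 held both. A match of letters is a description of the window and not a bound site.

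Below, 2 rule genes, 1 further G2/M gene and 1 S phase gene are printed 5′ to 3′ on the strand of the gene, with CHR, CCAAT and E2F letters of either strand in capitals. In MKI67 a CHR match overlaps a CCAAT match read on the opposite strand, and its CHR matches start 47 and 29 bases before the gene start. In PCNA, the clamp of the replication fork, an E2F match starts 59 bases before the gene start and no CHR letters are present.
MKI67, chr10:128126374-128126673, minus strand: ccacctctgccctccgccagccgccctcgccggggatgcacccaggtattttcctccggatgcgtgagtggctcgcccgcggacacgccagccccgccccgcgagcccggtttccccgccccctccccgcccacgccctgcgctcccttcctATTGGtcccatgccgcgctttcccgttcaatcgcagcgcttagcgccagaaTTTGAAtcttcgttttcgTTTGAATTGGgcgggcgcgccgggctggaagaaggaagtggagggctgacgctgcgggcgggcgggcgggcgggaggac
TOP2A, chr17:40417847-40418146, minus strand: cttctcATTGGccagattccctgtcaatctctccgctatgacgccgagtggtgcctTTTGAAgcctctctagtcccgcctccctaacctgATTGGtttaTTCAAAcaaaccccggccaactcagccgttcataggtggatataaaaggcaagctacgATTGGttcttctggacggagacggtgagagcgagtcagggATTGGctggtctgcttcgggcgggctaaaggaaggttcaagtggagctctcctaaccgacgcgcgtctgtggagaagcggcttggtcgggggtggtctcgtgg
CKS1B, chr1:154974431-154974730, plus strand: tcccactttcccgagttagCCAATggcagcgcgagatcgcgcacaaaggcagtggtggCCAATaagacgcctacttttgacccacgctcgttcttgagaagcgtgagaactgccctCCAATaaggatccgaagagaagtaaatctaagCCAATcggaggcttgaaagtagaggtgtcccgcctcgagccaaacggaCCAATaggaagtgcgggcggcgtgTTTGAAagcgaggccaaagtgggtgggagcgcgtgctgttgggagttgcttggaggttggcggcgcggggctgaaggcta
PCNA, chr20:5126573-5126872, minus strand: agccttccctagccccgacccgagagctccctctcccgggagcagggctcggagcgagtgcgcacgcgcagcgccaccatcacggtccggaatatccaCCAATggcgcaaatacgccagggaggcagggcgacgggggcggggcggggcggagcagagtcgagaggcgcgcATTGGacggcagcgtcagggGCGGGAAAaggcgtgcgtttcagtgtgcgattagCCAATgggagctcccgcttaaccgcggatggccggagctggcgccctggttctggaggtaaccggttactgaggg

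Levels were then compared between the cycling cells and non-cycling cells weighted to the same clusters, so that lineage composition was held alike. Of 6416 genes at 20 CPM or more in either state, 329 were at least 2-fold higher in cycling cells (5.13%) and 21 at least 2-fold lower (0.327%). Since the cells were chosen on division genes in this same contrast, nothing is read from these counts. Of the 329, 153 belonged to the division lists and families. The log2 ratio, with 1 count added, had a median of 0.02 over all genes. The largest ratios outside the 6 genes were those of CKAP2L, a spindle protein (58.4 against 0.92 CPM, log2 ratio 5.92, 5.35 to 6.70), CENPA, the centromeric histone (160 against 2.62 CPM, 5.91), and CEP55, which acts at abscission (77.6 against 1.5 CPM, 5.66). They were followed by KIF2C, CDCA3, PIF1, KIF20A, ASPM, PLK1 and DLGAP5, with log2 ratios from 5.56 to 5.18.

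The division lists are given by their counts as a description, since the rule used this contrast. In the cytokinesis list 9 of 9 genes were past 2-fold, with a median log2 ratio of 4.19, and KIF20A and CEP55 lay at 76.0 against 1.74 CPM and 77.6 against 1.5 CPM. In the list of mitotic kinases and cyclins 18 of 19 passed with a median of 4.26, in the kinetochore list 17 of 17 with 3.36, in the spindle list 15 of 15 with 4.06 and in the condensin and passenger list 7 of 7 with 3.63. In the replication fork list 15 of 15 passed too, but with a median of 1.68, from POLA1 at 1.04 to RRM2, the inducible subunit of ribonucleotide reductase, at 3.52 (100.1 against 8.71 CPM). TYMS, which makes thymidylate, was at 263 against 54.0 CPM, and PCNA at 96.2 against 38.7 CPM. Of the 9 licensing genes measured 7 passed, with a median of 1.46, and MCM3 and MCM5 lay at 0.99 and 0.65. Of 27 S phase genes measured 21 were past 2-fold, and UNG, a uracil glycosylase, had a log2 ratio of -0.63 (15.4 against 24.0 CPM).

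Chromatin proteins and tubulins, many of them abundant in non-cycling cells too, gave the largest numbers of added molecules among the division lists. Others of the list were scarce in non-cycling cells, such as LMNB2 at 17.6 CPM and LMNB1 at 21.1 CPM. Of the 16 genes of the list 15 were past 2-fold. HMGB2, a chromatin protein of dividing cells, was at 1534 against 130 CPM (log2 ratio 3.56), TUBA1B at 2677 against 677 CPM (1.98), and the histone variant H2AFZ at 1741 against 590 CPM (1.56). HMGA1 was the exception at 695 against 522 CPM.

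The regulators of entry into the cycle had mixed values. CCND1, the cyclin that answers growth factors, was at 77.6 against 84.6 CPM (log2 ratio -0.12, -0.26 to 0.01), CCND2 at 44.9 against 71.6 CPM (-0.67, -0.84 to -0.51) and CDK6 at 108 against 111 CPM. CDK4 was at 209 against 167 CPM (0.33, 0.24 to 0.41) and CCNE1 at 20.3 against 14.6 CPM (0.48, 0.20 to 0.75). In this list of 8 measured genes 2 were past 2-fold, MYBL2 (69.2 against 8.69 CPM) and FOXM1 (62.5 against 3.98 CPM), transcription factors that act on G2/M genes. Of 9 inhibitors and pocket proteins, CDKN1A was at 65.6 against 65.4 CPM (log2 ratio 0.00, -0.14 to 0.14) and RB1 at 35.1 against 34.5 CPM. CDKN1C was at 112 against 147 CPM, BTG1 at 292 against 387 CPM and BTG2 at 97.3 against 146 CPM, none past 2-fold. The 3 that were past 2-fold were all higher in cycling cells: CDKN3 (237 against 13.2 CPM), a phosphatase of the cyclin-dependent kinases, CDKN2D (29.3 against 8.68 CPM) and CDKN1B (41.3 against 16.5 CPM).

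**Figure D4:**
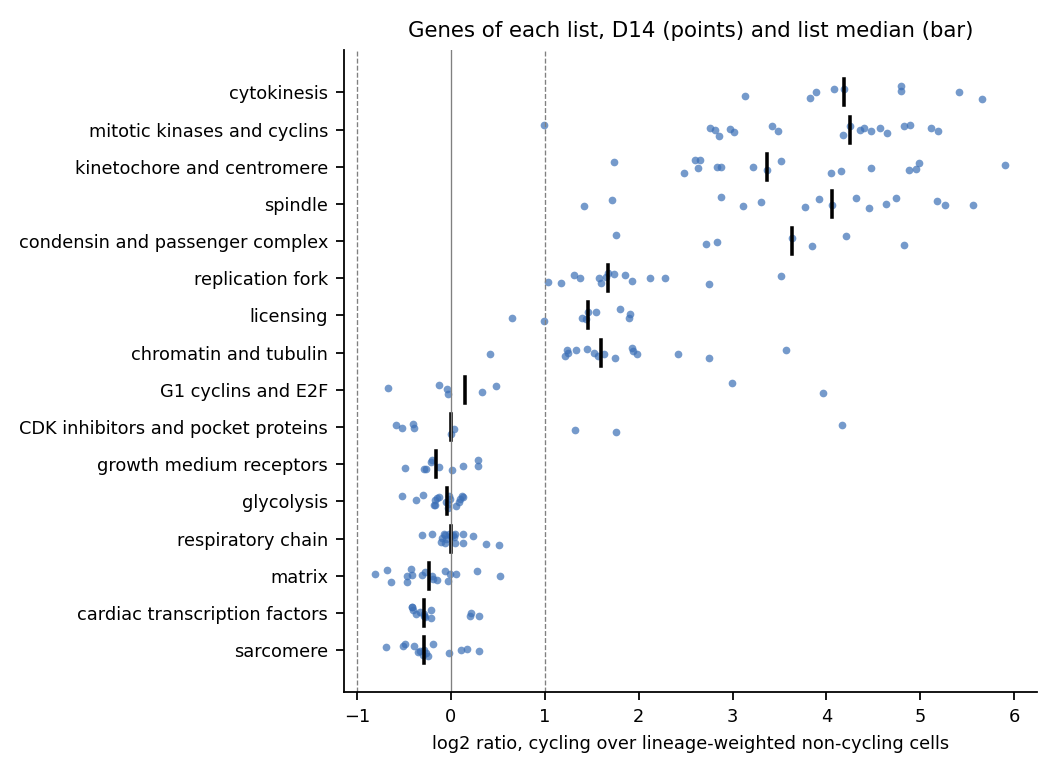
Log2 ratios of cycling over lineage-weighted non-cycling D14 cells for the measured genes of 16 lists without the 6 rule genes (points) with each list's median (bar), 2-fold being marked by the dashed lines. Mitotic lists centre between 3.36 and 4.26, replication lists at 1.46 and 1.68, and sarcomere, cardiac transcription factor, matrix and receptor lists between -0.28 and -0.16 with no gene past 2-fold.

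The lists of differentiation and metabolism given here held no gene past 2-fold once lineage was held alike. Over all genes the shares were 5.13% higher and 0.327% lower, so a count of 0 is near the background. The foregut endoderm marker list had 2 of 8 measured genes past 2-fold lower, APOA2 and TTR. A few non-cycling cells held much of the UMIs of both, as given below. After thinning, 38.7% of cycling and 42.8% of non-cycling foregut endoderm-like cells held a TTR UMI. None of 15 sarcomere genes passed 2-fold and their median log2 ratio was -0.28, from TTN at -0.70 (329 against 534 CPM) to MYL7 at 0.30 (1465 against 1191 CPM). Against all non-cycling cells without weighting, 16 of 18 sarcomere genes were past 2-fold lower with a median of -1.83. None of 13 cardiac transcription factors passed, with a median of -0.28, and HEY2 was at 32.2 against 26.2 CPM, HAND2 at 297 against 398 CPM and ISL1 at 143 against 190 CPM. None of 18 matrix genes passed, with POSTN, the largest, at 53.5 against 93.7 CPM (-0.81). In the list of receptors for the factors of the CGM, which also holds the endothelin-converting enzyme ECE1, 10 of 27 genes were measured and none passed. The EDN1 receptor EDNRA was at 22.5 against 31.8 CPM (-0.49, -0.74 to -0.27), FGFR1 at 96.7 against 96.2 CPM (0.01) and the WNT receptor FZD2 at 55.1 against 45.1 CPM (0.29). None of 18 glycolytic genes and none of 19 respiratory chain genes passed, and their medians were -0.05 and 0.00. BAMBI, the one WNT target measured, was at 679 against 789 CPM, and none of 9 p53 targets and stress genes passed.

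Outside the division lists and families, the genes with the largest ratios upward were PIF1, a DNA helicase (91.7 against 2.01 CPM, log2 ratio 5.48), PBK, a mitotic kinase (5.05), DEPDC1 (4.99), MXD3 (4.83), the kinetochore scaffold CASC5 (4.27) and CDKN3 (4.17). PRR11 and the histone chaperone ASF1B lay at 3.93 and 3.48, as did ARHGAP11A and ARHGAP11B at 3.72 and 3.49, although these 2 are near-identical copies whose reads may be split between them. Downward, GAL, APOA2 and TTR had log2 ratios of -1.59, -1.35 and -1.06, but the 5 highest non-cycling cells held 50.8%, 49.0% and 43.6% of their UMIs. The remaining genes were spread over many cells. NEAT1, the nuclear RNA of paraspeckles, was at 1074 against 2110 CPM (-0.97, -1.01 to -0.94) with UMIs in 417 of 435 cycling cells, the sterol reductase TM7SF2 at 32.2 against 69.7 CPM (-1.11), BEX2 at 74.4 against 150 CPM (-1.01) and IGFBP5 at 84.2 against 170 CPM (-1.01). The IGFBP5 ratio was -0.35 at a threshold of 12 and -0.76 without lineage weighting. SNHG8, the calcium channel gene ORAI3 and the hypoxia-responsive NDUFA4L2 lay between -0.95 and -0.93.

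The division lists were also counted within clusters. In the CM-like cells, 522 of 6888 genes were past 2-fold higher (7.58%) and 169 lower (2.45%) on 28 cells, and the G2/M list had 45 of 47 genes past 2-fold with a median log2 ratio of 4.90. Summed over the cytokinesis list, the cycling CM-like cells had 904 CPM and the cycling cells outside the CM-like clusters 676 CPM, against 29.3 and 34.3 CPM in non-cycling cells. This was the one of 9 division lists with a higher sum in the CM-like cells, the G2/M sum being 8453 against 9535 CPM, the S phase sum 1869 against 2184 CPM and the replication fork sum 1159 against 1249 CPM. None of 19 sarcomere genes was past 2-fold higher in cycling CM-like cells. MYBPC3 and TCAP were past 2-fold lower (54.6 against 129 CPM and 28.3 against 70.5 CPM, on 27 and 14 UMIs), TTN was at 2615 against 4654 CPM (-0.83, -0.91 to -0.75) and MYL7 at 14811 against 12213 CPM (0.28). HAND1 was the one of 10 cardiac factors past 2-fold, at 87.0 against 43.8 CPM (1.02, 0.50 to 1.44) on 43 UMIs. It was at 65.6 CPM in the 12 of these cells outside the top doublet scores and at 101 CPM in the other 16, so that the 12 alone are less than 2-fold above the non-cycling cells. HAND1 lay at 317 CPM in the cycling cells of cluster 0. NPPB, natriuretic peptide B, was at 4.04 against 76.2 CPM, but the 5 highest non-cycling cells held 77.1% of its UMIs. GMPR, IGFBP5, MAP1A and BCO2 followed, with log2 ratios from -1.89 to -1.59 on 7 to 12 UMIs.

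In cluster 0, 380 of 6465 genes were past 2-fold higher (5.88%) and 96 lower (1.48%). POSTN, a matrix protein of cushion and fibroblast cells, was lower in its cycling cells (64.8 against 154 CPM, log2 ratio -1.24, -1.48 to -1.01), as were the growth arrest gene GADD45G (-1.81) and the transcription factor CEBPD (-1.68), TECRL (-1.60) and IGFBP5 (-1.59). COL3A1 was at 984 against 1518 CPM (-0.63). HBG2, a fetal globin, was at 0.72 against 116 CPM, but a single non-cycling cell held 98.9% of its UMIs. In cluster 5, 401 of 6341 genes were past 2-fold higher (6.32%) and 101 lower (1.59%). Outside division genes, the lowest at 50 CPM or more in either state were NDUFA4L2 (15.9 against 70.9 CPM, -2.10), GADD45B (-1.44) and DDIT4 (115 against 295 CPM, -1.35), and MGP was higher (89.5 against 36.2 CPM, 1.30). In the stromal-like cluster, 427 of 6499 genes were past 2-fold higher (6.57%) and 95 lower (1.46%), and some of its leading genes were lower in its cycling cells. Leading genes and class names of all clusters were taken from non-cycling cells alone. This choice favours lower values of such genes in cycling cells, so nothing is read from their direction. MGP was at 125 against 389 CPM there (-1.62, -1.92 to -1.36), LUM at 40.9 against 101 CPM (-1.27) and the smooth muscle actin ACTA2 at 55.3 against 174 CPM (-1.63). IGFBP3, TM7SF2 and VGF lay between -1.91 and -1.52. After thinning, 13% of its cycling and 28.0% of its non-cycling cells held an MGP UMI, against 0% and 1.11% of foregut endoderm-like cells. Of the 11 stromal markers measured, 4 were past 2-fold lower. In the foregut endoderm-like cluster, 325 of 6045 genes were past 2-fold higher (5.38%) and 75 lower (1.24%). Of its 10 markers 2 were lower. Its G2/M list had 44 of 47 genes past 2-fold higher, its S phase list 6 of 21 and its replication fork list 5 of 13, where cluster 0 had 25 of 31 S phase and 15 of 15 replication fork genes. The difference between the clusters was not tested.

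By the same rule 384 of 2657 D8 cells (14.5%, 13.1% to 15.8%) and 154 of 1946 D21 cells (7.91%, 6.75% to 9.2%) cycled, and day and library cannot be told apart. The filters kept these 2657 of 3563 D8 barcodes, but only 1946 of 9149 D21 barcodes, so the D21 values describe a small part of that library. For D8, D14 and D21 in that order, MYH6, the alpha cardiac myosin, lay at 86.3, 443 and 1815 CPM in cycling cells, each below the 262, 1550 and 2734 CPM of that day's non-cycling cells. COL3A1 was at 15.3, 657 and 1172 CPM in the cycling cells, and ISL1 at 87.9, 143 and 12.9 CPM. Of the 3 libraries, D14 had the highest ISL1 in its cycling cells. That level was below the 190 CPM of lineage-weighted non-cycling D14 cells, and cycling foregut endoderm-like cells carried ISL1 too, as given above.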

How the data were processed

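The deposited table holds UMI counts per gene and cell, which the authors made with Cell Ranger on hg19 per the labels; Seurat 3.2.1 is also named in the submitters' processing notes. Columns were mapped to D8, D14 and D21 by their suffix, and 0 columns of per-sample values were left unused. The cells and gene lists were chosen with earlier results of these data known. Non-cycling D14 cells were clustered in Seurat 5.3.0 (R 4.3.3; 2000 variable genes less division genes, 20 components, resolution 0.8). Clusters were named from at least 3 markers at 2-fold, with 10 CPM added and a lead of 2 over the next class. Levels are summed UMIs per 1000000 (CPM) with exact Poisson intervals, and shares have exact Clopper-Pearson 95% intervals (scipy 1.17.1). Genes at 20 CPM in either state were compared, and ratios have 1 count added. No doublets were removed. Genes named by rule are the 10 with the largest ratios each way, all and outside division genes, at 50 CPM. The rule of 5 genes each way in named classes of at least 50 cycling cells applied to none, so the genes named within clusters 0 and 5, the stromal-like cluster and the CM-like cells were chosen by an extension made after cluster sizes were seen. Ratio steps were tested on simulated data. Alternatives covered the rule, filters, clustering, depth and weighting.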

Additional observations from a re-analysis of the deposited data

How the results depend on the processing

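No paired analysis was possible because each day is 1 library. The cycling share of D14 cells was 14.0% at a threshold of 5, 10.1% at 12 and 13.4% with a mitochondrial limit of 5%. CM-like cells made up 9.89% of the cycling cells at resolution 0.4, 2.99% when all cells were clustered together, 9.64% at a threshold of 12 and 3.31% without the top doublet scores. Of the CM-like cells 1.65% cycled when clustered together and 1.42% without those scores. Over all lineage settings the share of cells outside the CM-like clusters that cycled was higher than the CM-like share. Genes past 2-fold higher numbered 193 at 50 CPM. Those lower numbered 51 without mitochondrial and ribosomal protein genes, 197 without lineage weighting, 57 at 10 CPM, 6 at 50 CPM and 43 after thinning. At a threshold of 12, 1.38% of cycling cells had more S phase than G2/M UMIs. Of 490 log2 ratios of 49 named genes under alternatives, 140 left the main interval. No ratio of a gene at least 2-fold apart in the main setting changed sign, and smaller ratios were not checked for sign. One clustering, without genes that correlate with the score, was added after seeing the data. The cause of these shifts was not tested. Clusters with few cycling cells, the CM-like ones among them, have wide intervals.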
